A study of Caenorhabditis elegans with 2 samples.

Results

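In the deposited table of small RNA coverage per 1 kb bin of the Caenorhabditis elegans genome, 215 of 100257 bins carry the authors' mark GRH, and this account is about those bins. All bins with a plus sign in the GRH column were taken, whatever their mark in the GRTS column, and directly adjacent ones were merged to 104 runs. The table spells out neither mark. In published work on this pathway, GRH stands for heterochromatin that depends on germline nuclear RNAi and GRTS for transcriptional silencing that depends on it. How the marks were assigned to bins is not given in the sources used here, so they may not be independent of small RNA data. The table has no gene names and no histone data, so the label of heterochromatin could not be checked against a second readout.

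In germline nuclear RNAi, small interfering RNAs made by RNA-dependent RNA polymerases on a target transcript are loaded on HRDE-1, a worm Argonaute protein of germ cell nuclei. HRDE-1 is known to recruit silencing to the nascent transcripts of matching loci, with methylation of lysine on histone H3 and lower transcription. Known targets include LTR retrotransposons and some protein-coding genes. In published work many loci lose the chromatin mark in mutants without a gain in transcripts, so the chromatin and the transcriptional response need not fall on the same bins.

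The series has 2 libraries from young adult hermaphrodites. The coIP library holds small RNA that was pulled down with FLAG-StrepII-HRDE-1 on an anti-FLAG gel, and its strain is labelled only HRDE-1-coIP; how the tagged protein was expressed is not given. The other library holds small RNA from N2, the wild-type laboratory strain. The labels carry the same pull-down text for both, so they leave it unclear if the N2 RNA came from lysate or from a control pull-down. RNA was cloned in a way that does not need a 5′ monophosphate, which captures polymerase products with a triphosphate. Whole animals were used, so fewer germ cells and less small RNA per germ cell cannot be told apart.

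The bins held 4832030 read equivalents in the coIP and 2161949 in N2. Each library was set to parts per 1000000 of its own sum (ppm). Neither group has a second library, so nothing was tested and no p-value was computed here. Intervals (95%) on shares and run ratios cover counting error only. Those on medians reflect the spread between bins, taken as independent, and hold no counting error. Neither kind covers variation between libraries. Bins lie in runs and share reads with their neighbours, so they are not replicates either. Ratios are log2 values of coIP over N2 after adding 0.121 ppm to each. Measured bins are the 58910 with a mean of at least 0.351 ppm over the pair of libraries. Their median was 0.73, or 1.66-fold, and the ratios below are to be read against it. This median moves with the scaling, the pseudocount and the minimum. Positions are those of the table, counted from 1. They were not matched to the reference build WBcel235, since genes annotated there on I and V end past the last bin. No gene or sequence is therefore given.

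GRH bins were spread over the autosomes and were rare on the X chromosome. Chromosome I held 55 of them in 22 runs, IV 49 in 26, II 40 in 17, V 36 in 17 and III 32 in 19. X held 3 bins in 3 runs. Per Mb that is 3.65 bins on I, 2.80 on IV, 2.62 on II, 2.32 on III, 1.72 on V and 0.169 on X. X makes up 17.7% of all bins and 1.40% of the GRH bins. The outer 30% at each end of the chromosomes, the arms, held 152 of the 215 bins (70.7%), against 60.0% of all bins. The direction depends on how arms are defined: the outer 20% at each end held 31.6% of the GRH bins, against 40.0% of all bins. All 3 bins of X lay in its arms. Among the autosomes, II had the most with 85.0% of its GRH bins in the arms and V the least with 52.8%.

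Most runs were short. Of the 104 runs, 58 were a single bin, 21 had 2 bins, 12 had 3 or 4 and 13 had 5 to 7. The 13 long runs nevertheless held 74 of the 215 bins. The longest, of 7 bins, were 4 in number, with 2 on chromosome II, 1 on I and 1 on V.

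GRH bins held much more small RNA than the genome at large in both libraries. Their median was 106.9 ppm in the coIP (quartiles 23.1 and 423.6) and 31.3 ppm in N2 (quartiles 6.62 and 85.5). Bins with neither mark had medians of 0.411 ppm in the coIP against 0.254 ppm in N2. GRH bins are 0.214% of all bins and took 8.82% of the coIP library (8.80 to 8.85) and 1.86% of N2 (1.84 to 1.88). Without the 10 highest bins of either library these shares were 8.25% of the coIP and 2.87% of N2, a far larger move than the counting intervals. Of the 215, 94 were among the 1003 highest bins of the coIP and 66 among the 1003 highest of N2, and 65 were in both sets. Low bins were also marked. In the coIP, 30 GRH bins reached 1000 ppm, 113 reached 100 ppm, and 6 stayed under 1 ppm.

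Of the 215 bins, 213 were measured and 2 were not. The median log2 ratio of the 213 was 1.88 (1.71 to 1.98), which is 1.15 above the median measured bin, with quartiles at 1.34 and 2.58. The coIP was at least 4-fold higher in 90 of them (42.3%), against 19.4% of all measured bins, and at least 4-fold lower in 0, against 9.04%. Above the median measured bin were 191 of the 213 (by construction 29426 of all 58910 are). At least 2-fold higher were 176, against 44.1% of all measured bins, and at least 8-fold higher 24, against 7.78%. The 4-fold count depends on the scaling, and its background on other settings too. With the median of ratios set to 1 it was 34 of 213 (15.96%) against 9.47% of all measured bins, and with totals that leave out the 10 highest bins of either library it was 46 (21.6%) against 11.6%. With the floor subtracted it was 42.7% of GRH bins against 31.5% of all measured bins, and at 10 times the minimum 44.0% against 32.7%. With no minimum it was 41.9% against 11.4%, and with a pseudocount 10 times larger 38.5% against 9.46%. The GRH median stood 0.73 above that of all bins at 10 times the minimum and 1.99 above it with no minimum. In the authors' deposited table, the p-value was 0.05 or less with the coIP higher in 177 of the 215 GRH bins, against 12.6% of all bins, and with the coIP lower in 1, against 4.82%. The method behind these p-values of the authors' deposited table is not stated.

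**Figure D1:**
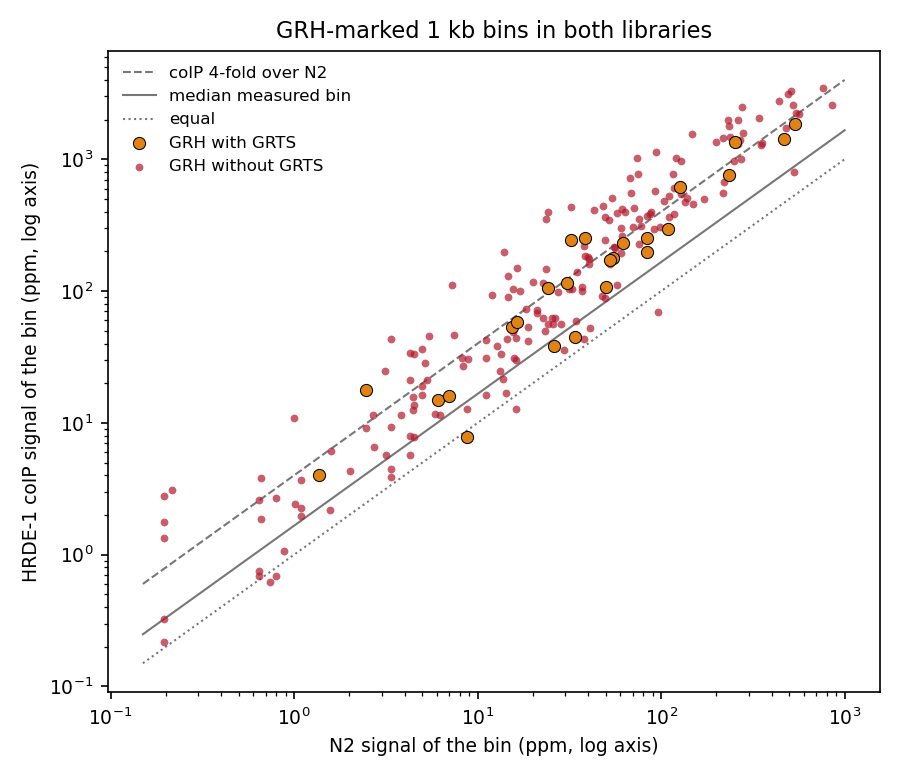
Signal of each GRH bin in the HRDE-1 coIP (vertical axis, ppm) against N2 (horizontal axis, ppm), both on log axes, with the 25 bins that also carry GRTS in orange and the 190 that do not in red. Lines mark equal values, the median measured bin (1.66-fold) and a 4-fold ratio. The points rise along the lines with scatter, at log2 ratios of -0.47 to 4.04 among measured bins.

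The coIP signal of a GRH bin followed its N2 signal closely. On the log2 scale, Pearson's r over the 213 measured GRH bins was 0.95, with a Spearman's rho of 0.95. Over measured bins with neither mark these were 0.57 and 0.50. These values describe bins that share 2 libraries, and neighbouring bins are not independent. The range of signal also differs between the 2 sets, which by itself moves such a correlation. The slope of log2 coIP on log2 N2 was 1.08 in GRH bins.

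The spread of the ratio was narrow where N2 signal was high, and there the unmarked bins differed most. Among bins with at least 10 ppm in N2, the 153 GRH bins had a median log2 ratio of 1.94 and an interquartile range of 1.05, and the 5860 bins with neither mark had -0.23 and 4.75. The coIP was at least 4-fold lower in 0 of those 153 GRH bins and in 1864 (31.8%) of the 5860. It was at least 4-fold higher in 72 (47.1%) of the GRH bins and in 1190 (20.3%) of the bins with neither mark. The narrow spread was shared by the bins marked GRTS alone, whose interquartile range was 0.70 over 125 bins.

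By class of N2 signal, the GRH median was 1.71 under 1 ppm (14 measured bins), 1.56 from 1 to 10 ppm (46), 1.84 from 10 to 100 ppm (106) and 2.21 at 100 ppm and over (47). Bins with neither mark had 1.07, 0.31, -0.09 and -3.09 in these classes. A class set on N2 favours bins with high N2, which lowers ratios at the upper end by construction, and it does so for both sets. In the top class all 47 GRH bins were among the 1003 highest coIP bins, against 213 (39.2%) of 544 bins with neither mark. Bins marked GRTS alone had medians of 1.96, 1.48, 1.40 and 1.46 in the 4 classes.

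**Figure D2:**
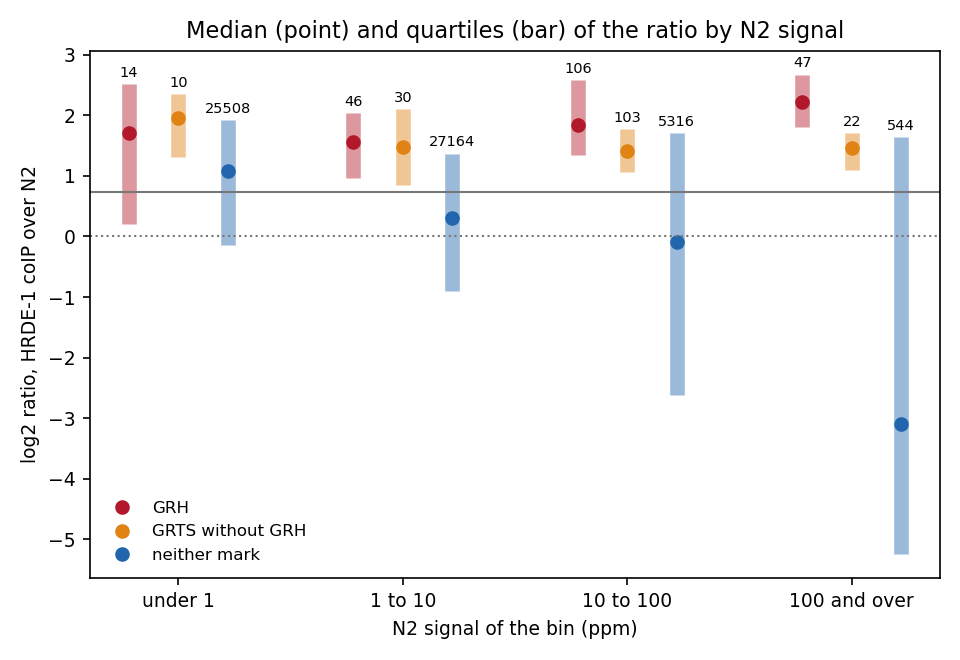
Log2 ratio of HRDE-1 coIP over N2 in 4 classes of N2 signal for GRH bins (red), bins with GRTS but not GRH (orange) and bins with neither mark (blue); points are medians, bars run between quartiles and the number of measured bins stands above each bar. The solid line is the median measured bin (0.73). GRH medians stay between 1.56 and 2.21 while those of bins with neither mark reach -3.09.

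Both marks were on 25 bins, which is 11.6% of the 215 GRH bins and 13.1% of the 191 GRTS bins. Over all bins, 0.191% carried GRTS, so the mark was far more frequent on GRH bins than in the genome at large, and most bins of either mark still lacked the other. Those 25 lay in 16 of the 104 GRH runs: 6 bins on I, 8 on II, 6 on IV and 5 on V, with none on III or X. In 9 of the 16 runs every GRH bin also carried GRTS. Of the 88 runs without a shared bin, 14 had a GRTS bin within 10 kb. Their median distance to the nearest GRTS bin was 364 kb, leaving out the 3 runs on X, which has no GRTS bin.

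Whether bins with both marks held more or less signal than bins with GRH alone depended on the measure. The 25 had medians of 172.5 ppm in the coIP against 38.3 ppm in N2, and the 190 without GRTS had 103.9 ppm and 27.8 ppm. The median log2 ratio was 1.70 (1.46 to 1.90) with GRTS and 1.91 (1.74 to 2.06) over the 188 measured bins without, a difference of -0.20 with intervals that overlap. At least 4-fold higher in the coIP were 6 of 25 (24.0%, near the 19.4% of all measured bins) and 84 of 188 (44.7%). This difference was not tested, since bins of 1 library are not replicates. The 165 measured bins with GRTS alone had 1.41 (1.32 to 1.54). The upper quartile of the coIP went the other way, with 254.1 ppm with GRTS and 435.1 ppm without. So did the median coIP signal per run, with 187.3 ppm in the 16 runs with a GRTS bin and 398.4 ppm in the 88 without. Taken by run, 5 of the 16 runs with a GRTS bin (31.3%) and 45 of the 88 without (51.1%) were at least 4-fold higher. No share over runs of other bins was available to set beside these. Runs with a GRTS bin were longer, with 10 of 16 (62.5%) over 1 bin against 36 of 88 (40.9%). A longer run has more bins that could carry GRTS, so this direction is favoured by how the runs were divided.

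The 16 runs with both marks covered a wide range of signal. The strongest in the coIP was I 2629001 to 2635000, of 6 bins with 1 shared, with 4553 ppm in the coIP against 552.2 ppm in N2, a ratio of 8.20 (7.74 to 8.69). Next was II 13246001 to 13250000, with 3 of 4 bins shared, at 3785 ppm in the coIP against 1076 ppm in N2, a ratio of 3.49 (3.35 to 3.65). II 12740001 to 12747000 had 1 of 7 bins shared, 3039 ppm in the coIP against 419.9 ppm in N2, a ratio of 7.21 (6.74 to 7.71). In both runs with a ratio over 7, a single bin carried GRTS. The same held for the runs with the lowest ratios, V 6590001 to 6591000 (1.32) and IV 527001 to 528000 (1.47).

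II 5098001 to 5100000, where both bins were shared, held 2113 ppm in the coIP against 576.3 ppm in N2 (ratio 3.64, 3.43 to 3.86). IV 4130001 to 4132000, also fully shared, held 1064 ppm in the coIP against 343.2 ppm in N2 (3.08, 2.85 to 3.33). I 4457001 to 4464000, with 5 of 7 bins shared, held 773.0 ppm in the coIP against 210.1 ppm in N2 (3.67, 3.33 to 4.05). In these 3 runs and in II 13246001 to 13250000, where GRTS covered most or all of the bins, the ratio lay between 3 and 4. It was 4.10 (2.96 to 5.82) in the weaker IV 4124001 to 4126000, also fully shared. Over all 9 fully shared runs, 6 of them the single bins named below, the ratio ranged more widely, from 1.32 to 4.37.

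The smaller of these runs were II 14985001 to 14987000 (255.1 ppm in the coIP against 73.4 ppm in N2), V 20296001 to 20297000 (197.4 and 83.3 ppm), V 8828001 to 8829000 (177.2 and 54.4 ppm) and V 8870001 to 8871000 (172.5 and 52.9 ppm). V 11484001 to 11487000 had 124.1 ppm in the coIP against 44.5 ppm in N2, IV 4184001 to 4186000 had 115.6 and 23.1 ppm, II 12283001 to 12284000 had 105.8 and 24.2 ppm, and IV 4124001 to 4126000 had 76.2 and 18.8 ppm. All 8 held more in the coIP, with ratios of 2.36 to 5.05. The lowest ratios were 1.47 (1.08 to 2.01) at IV 527001 to 528000, with 38.3 ppm in the coIP against 26.0 ppm in N2, and 1.32 (1.01 to 1.75) at V 6590001 to 6591000, with 44.9 and 33.8 ppm. These 2 lay under the 1.66-fold of the median measured bin, which unlike run ratios keeps the floor. Their direction turned with the scaling: with the median of ratios set to 1 they were 0.835 and 0.754.

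**Figure D3:**
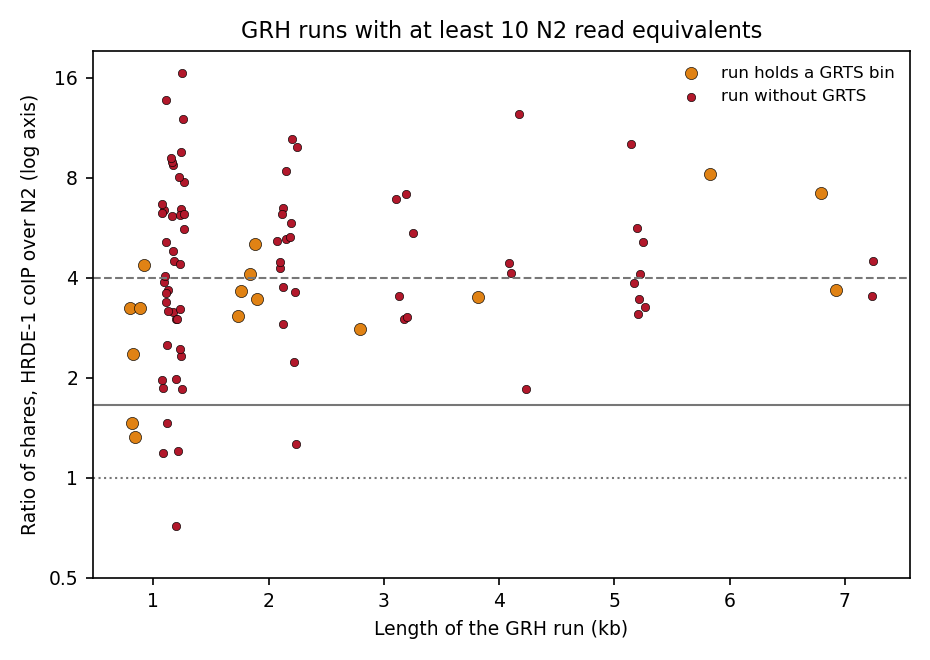
Ratio of library shares, HRDE-1 coIP over N2 (log axis), for the 94 GRH runs with at least 10 N2 read equivalents against run length in kb; orange points are runs that hold a GRTS bin and red points runs without one, with a small sideways scatter. Lines mark 1, the 1.66-fold of the median measured bin (floor kept, unlike the run ratios) and 4-fold. The ratios of the single-bin runs span 0.717 to 16.5 and those of the 7 kb runs 3.53 to 7.21.

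Over runs of any length, the coIP held more in 102 of 104, as ppm summed over the bins. With this scaling the coIP was also higher in 37761 of all 58910 measured bins, so an even split is not the background. The lower limit of the counting interval lay over 1.66 in 82 runs. For neither count of runs was a share over runs of other bins available. The ratio did not grow with length. Bins of single-bin runs had a median log2 ratio of 1.73 (56 measured), those of 2-bin runs 1.91 (42), those of runs of 3 or 4 bins 1.72 (41) and those of runs of 5 to 7 bins 1.92 (74). The lengths differed more in spread, with interquartile limits of 0.98 and 2.64 in single bins and of 1.55 and 2.43 in the long runs.

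A few runs held much of the GRH signal. The 8 highest runs took 37.1% of the GRH signal of the coIP, and 20 bins took 50% of it. The highest was II 11171001 to 11178000, of 7 bins without GRTS, with 6370 ppm in the coIP against 1406 ppm in N2, the most of any GRH run in either library, and a ratio of 4.50 (4.34 to 4.67). After it came II 13123001 to 13125000, with 4626 ppm in the coIP against 865.0 ppm in N2, a ratio of 5.31 (5.07 to 5.57). IV 6353001 to 6355000 had 3456 ppm in the coIP against 767.1 ppm in N2, a ratio of 4.47 (4.25 to 4.71). In that run the bin IV 6354001 to 6355000 alone held 3453 ppm in the coIP against 766.0 ppm in N2, the highest coIP value of all GRH bins and the 7th highest of the whole library.

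Single bins reached the same level. II 14143001 to 14144000 held 3324 ppm in the coIP against 511.5 ppm in N2, a ratio of 6.45 (6.07 to 6.86). I 248001 to 249000 held 3140 ppm in the coIP against 488.2 ppm in N2, a ratio of 6.39 (6.004 to 6.80). Of the 8 highest coIP runs, 5 were on chromosome II, 2 on I and 1 on IV. The other high N2 run was I 5451001 to 5454000, with 2868 ppm in the coIP against 948.4 ppm in N2, a ratio of 3.00 (2.87 to 3.15). Its last bin, with 2559 ppm in the coIP against 848.7 ppm in N2, was the highest GRH bin of N2.

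The highest ratios were in runs of 1 to 4 bins without GRTS. Among runs with at least 10 N2 read equivalents, IV 13307001 to 13308000 stood first at 16.5 (12.6 to 22.1), with 400.3 ppm in the coIP against 24.3 ppm in N2. III 9240001 to 9241000 followed at 13.7 (11.7 to 16.1), with 1016 ppm in the coIP against 73.7 ppm in N2. II 14314001 to 14318000 was at 12.4 (9.91 to 15.7), IV 12562001 to 12563000 at 12.05 (10.5 to 13.9) and IV 12142001 to 12144000 at 10.5 (8.997 to 12.3). In the II run of 4 bins, 97.7% of the coIP signal was in its last bin. Even with the median of ratios set to 1 the first of these ratios was 9.39.

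At the other end, 1 well-covered run held more in N2. I 11931001 to 11932000 had 69.1 ppm in the coIP against 95.6 ppm in N2, a ratio of 0.717 (0.602 to 0.856), on 210.4 N2 read equivalents. Its log2 ratio of -0.47 was the lowest of all measured GRH bins. Near equality stood V 5659001 to 5660000 at 1.19 (0.776 to 1.85), IV 2647001 to 2648000 at 1.20 (0.900 to 1.62) and III 3861001 to 3863000 at 1.26 (0.673 to 2.51), with intervals that include 1. With the median of ratios set to 1 these 3 were 0.675, 0.685 and 0.720. The next lowest single bins were IV 10354001 to 10355000 at -0.34, with 12.8 ppm in the coIP against 16.3 ppm in N2, and I 5467001 to 5468000 at -0.23, with 0.617 ppm and 0.742 ppm. In all, 5 of the 213 measured GRH bins had more in N2, against 21149 of all 58910 measured bins. Both counts hold for libraries set to their own sums.

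The 5 longest runs show how the signal lay within a domain. In II 11171001 to 11178000, the 7 bins held 975.0, 769.2, 1340, 2261, 475.6, 547.5 and 1.96 ppm in the coIP, and 129.0, 116.1, 353.5, 543.2, 135.3, 127.9 and 1.09 ppm in N2. Both libraries peaked in bin 4 and nearly ended before the last, though the mark went on over it. In II 12740001 to 12747000, the bins held 2.42, 0.750, 1360, 198.8, 110.3, 349.2 and 1019 ppm in the coIP, and 1.02, 0.644, 253.5, 13.8, 7.22, 23.5 and 120.2 ppm in N2. The first 2 bins were nearly empty and bin 3, the 1 that also carries GRTS, was the highest in both libraries. The 3 bins after it had log2 ratios of 3.83, 3.91 and 3.88, the highest of all GRH bins after the single bin on IV at 4.04.

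In I 2629001 to 2635000, the 6 bins held 4.31, 19.0, 1790, 2473, 21.2 and 245.9 ppm in the coIP, and 2.01, 4.96, 233.5, 275.2, 4.28 and 32.2 ppm in N2. Nearly all of the signal was in bins 3 and 4, and the GRTS mark was on the last. In I 4457001 to 4464000, where the last 5 bins carry GRTS, the bins held 10.9, 104.2, 4.03, 53.6, 115.7, 252.4 and 232.2 ppm in the coIP, and 0.996, 15.6, 1.37, 15.4, 30.6, 84.1 and 62.0 ppm in N2. Its first 2 bins, without GRTS, had log2 ratios of 3.31 and 2.73 and the 5 with GRTS had 1.48 to 1.92. The 3.31 rests on 1.77 N2 read equivalents and the 1.48 on 2.58, so both are limited by depth. In V 5472001 to 5479000 the bins held 21.4, 99.4, 387.2, 263.8, 453.9, 245.9 and 59.6 ppm in the coIP, and 13.8, 36.9, 86.8, 61.2, 149.6, 49.4 and 34.4 ppm in N2. It was the most even of the 25 runs of 3 or more bins, with 29.6% of its coIP signal in its highest bin.

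**Figure D4:**
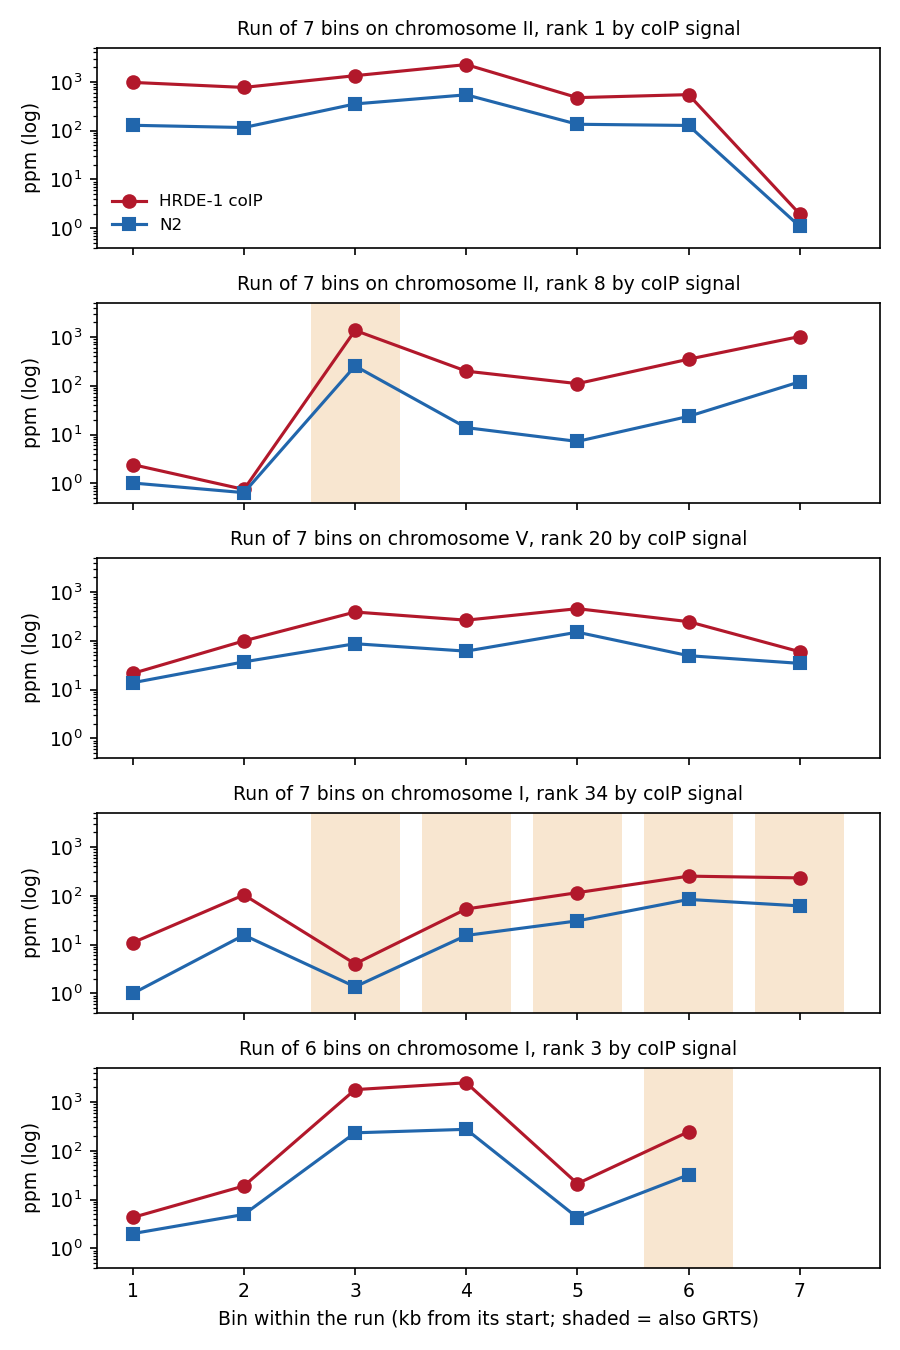
Signal per bin (ppm, log axis) of the HRDE-1 coIP (red circles) and N2 (blue squares) along the 5 longest GRH runs, by bin within the run; bins that also carry GRTS are shaded. Both lines rise and dip at mostly the same bins while the gap between them varies within a run, and some marked bins, such as the last of the top run (1.96 ppm in the coIP against 1.09 ppm in N2), are nearly empty.

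Unequal signal within a run was common. In the 25 runs of 3 or more bins, the highest bin held a median of 57.1% of the coIP signal of the run and 60.6% of the N2 signal. It was the same bin in both libraries in 24 of the 25. Log2 ratios within these runs, near-empty bins included, ranged over a median of 1.69. The 65 inner bins had medians of 180.0 ppm in the coIP against 41.1 ppm in N2, and the 50 bins at the ends of these runs had 56.5 ppm and 18.8 ppm. Their median log2 ratios were 1.92 inside and 1.81 at the ends.

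Bins beside GRH bins carried small RNA as well, and it was lower a few kb away. Bins with neither mark directly beside a GRH bin had a median of 27.8 ppm in the coIP against 9.61 ppm in N2 (181 bins). At 2 kb the medians were 6.53 ppm in the coIP against 3.38 ppm in N2, and at 5 kb they were 3.02 ppm and 1.16 ppm. Farther than 5 kb from any GRH bin, the 99035 bins with neither mark had medians of 0.399 ppm in the coIP against 0.254 ppm in N2. The median log2 ratio was 1.54 (1.35 to 1.75) at 1 kb, 1.27 at 2 kb, 1.44 at 3 kb, 1.05 at 4 kb, 1.12 (1.05 to 1.53) at 5 kb and 0.72 beyond, which is no steady decline. Signal at the edge of the 5 kb reach thus still stood above the rest of the genome in both libraries. Next to GRH bins, 17 bins carried GRTS alone, with medians of 186.8 ppm in the coIP against 39.1 ppm in N2.

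Taken run by run, the mean bin of the run held more than the mean of its unmarked neighbours up to 3 kb away in 78 of 104 runs in the coIP and in 77 in N2. The median of the run over its neighbours was 3.07-fold in the coIP and 2.62-fold in N2. In 26 runs the neighbours held more than the marked bins in the coIP. The GRH mark therefore did not always sit on the local peak of small RNA.

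**Figure D5:**
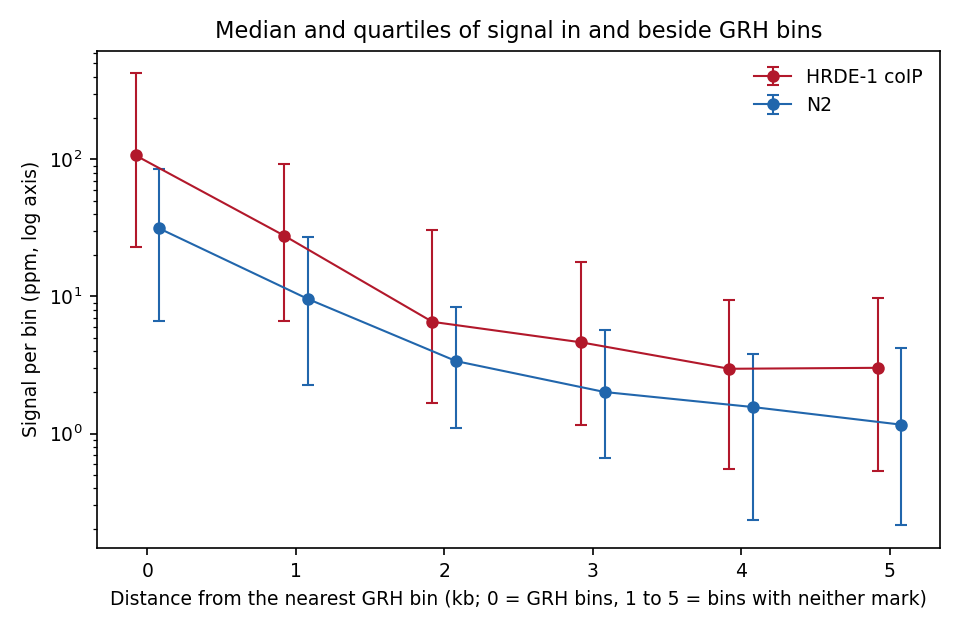
Signal per bin (ppm, log axis) in GRH bins (distance 0) and in bins with neither mark at 1 to 5 kb from the nearest GRH bin, for the HRDE-1 coIP (red) and N2 (blue); points are medians and bars run between quartiles. The coIP median is 106.9 ppm at 0, 27.8 ppm at 1 kb, 2.97 ppm at 4 kb and 3.02 ppm at 5 kb, and that of N2 is lower at each kb than at the one before.

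Many GRH bins held fractions of reads, which can arise where a read that matches several places is divided among them. How the authors treated such reads is not given in the sources used here. A bin's value was called whole when it was off an integer multiple of 1 read's value by at most 0.0055, a window that 4.74% of N2 values would meet by chance. From 1 to 100 ppm in N2, 32.9% of 152 GRH bins and 68.1% of 32480 bins with neither mark were whole. These 2 sets differ in level, and whole values depend on it. From 1 to 10 ppm the shares were 45.7% (GRH) and 71.1% (neither mark), and from 10 to 100 ppm 27.4% and 52.8%. At 100 ppm and over the order turned, with 36.2% of 47 GRH bins and 29.6% of 544 bins with neither mark. From 1 to 100 ppm, the 50 GRH bins with whole N2 reads had a median log2 ratio of 1.59 (1.17 to 1.92). The 102 with fractions had 1.84 (1.67 to 1.98), so the intervals overlap. Among bins with neither mark the medians were 0.13 (whole) and 0.64 (fractions). The part of repeated sequence in the GRH signal was not tested.

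The median ratio of GRH bins differed little between arms and centres, and it ranged from 1.72 to 2.11 over the autosomes. GRH bins of the arms had a median of 1.88 (1.67 to 2.05) and those of the centres 1.80 (1.69 to 2.15), whereas bins with neither mark had 0.95 in the arms and 0.34 in the centres. By chromosome the GRH medians were 2.11 (1.66 to 2.64) on II, 1.98 (1.55 to 2.74) on III, 1.98 (1.62 to 2.38) on IV, 1.79 (1.59 to 1.92) on I and 1.72 (1.60 to 2.02) on V. All 5 intervals overlap, though they take bins as independent. Among the autosomes, the share at least 4-fold higher ran from 29.1% on I to 55.0% on II, against 19.4% of all measured bins. In level, II stood apart: its GRH bins had a median of 349.0 ppm in the coIP against 50.8 ppm in N2, and chromosome II took 33.6% of the GRH signal of the coIP with 18.6% of the bins. V took 7.65% with 16.7%.

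The 3 GRH bins of X all lay near its left end and were low. X 255001 to 256000 held 55.8 ppm in the coIP against 28.3 ppm in N2, X 251001 to 252000 held 5.71 and 4.30 ppm, and X 214001 to 215000 held 5.71 and 3.16 ppm. Their log2 ratios were 0.98, 0.40 and 0.83, and X has no GRTS bin.

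Depth limits what can be said of the lowest members. In 21 GRH bins N2 had under 3 reads, and in 5 of them it had 0, which allows up to 3 reads or 1.39 ppm. Those 5 held 0.473 to 13.02 read equivalents in the coIP. The 2 bins under the minimum, III 6649001 to 6650000 and V 1700001 to 1701000, had 0.473 and 1.01 read equivalents in the coIP and 0 in N2, so no difference was detectable there.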

How the data were processed

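Bowtie 0.12.7 is named in the submitters' processing notes; each of genome build, read filters, multi-site reads and normalising total is not given in the sources used here. The deposited coverage signal per 1 kb bin carries a floor of 0.1, and 1 read was worth 0.232 in N2 and 0.169 in the coIP, found from the steps between low values. The p-value per bin, rounded to 2 decimals, and both marks are the authors'. Each library was scaled to its own sum. The pseudocount was the smallest scaled value and the minimum the median of all values. Shares and run ratios use read equivalents (value less floor, over the value of 1 read), with Clopper-Pearson intervals. Medians have binomial order-statistic intervals that take bins as independent. The Clopper-Pearson intervals cover counting error only, and those on medians reflect the spread between bins and hold no counting error. Reads without molecular identifiers are not independent molecules.

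The members, lists and rules were chosen with earlier results of these data known. Named are the 8 runs with the largest coIP signal, the 5 with the largest N2 signal, the 5 longest, the 5 with the highest and the 5 with the lowest ratio at 10 or more N2 read equivalents, every run with a bin of both marks, the highest bin of each library, and the 3 highest and 3 lowest bins by ratio. Other bins, on X and below the minimum, were named after their values were seen. Scaling, pseudocount, minimum, floor, fold, 1 bin per run and the leading run were varied. Calls were checked on simulated data with Python 3.11.15, numpy 2.4.6 and scipy 1.17.1.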

Additional observations from a re-analysis of the deposited data

How the results depend on the processing

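Direction was kept by the GRH medians, by the difference between GRH bins with and without GRTS, and by the count of 0 bins at least 4-fold lower under every setting run. That difference ranged from -0.06 with a pseudocount 10 times larger to -0.41 with 1 bin per run. The intervals of the medians with and without GRTS overlapped under every setting. Scaling by the median of ratios, which takes the median measured bin to 0, gave GRH medians of 1.06 over all, 0.89 with GRTS and 1.10 without, and 34 bins at least 4-fold higher. Totals without the 10 highest bins of either library gave 1.21, 1.03, 1.24 and 46 bins. With 1 bin per run the medians were 1.98 over all and 2.12 without GRTS. Of those 102 bins, 51 (50%) were at least 4-fold higher, against 19.4% of all measured bins. At 2-fold 176 bins were higher (44.1% of all measured bins were) and at 8-fold 24 (7.78% were). The GRH share of the coIP was 8.72% as deposited, 8.25% without the 10 highest bins and 8.18% without the leading run, and that of N2 was 1.83%, 2.87% and 1.72%. With arms as the outer 20%, 31.6% of GRH bins lay there against 40.0% of all bins, which turns the difference from all bins round. Bridging gaps of 1 bin left 94 runs. Of the 32 named runs, 31 left their counting interval under either scaling, by its construction, and 5 crossed 1 under both scalings. Of these 5, IV 527001 to 528000 (0.835 and 0.905) and V 6590001 to 6591000 (0.754 and 0.817) had intervals that excluded 1. IV 2647001 to 2648000 (0.685 and 0.743), V 5659001 to 5660000 (0.675 and 0.732) and III 3861001 to 3863000 (0.720 and 0.780) did not. Keeping the floor moved none of the 32. Alternatives for run ratios were chosen after seeing the data. No paired analysis was possible because the series has 1 library a group. Ratios of the 21 bins with under 3 N2 reads are limited by depth.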

Other observations

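A pair of GRH bins on V lay in stretches of almost equal signal. V 8870001 to 8871000 and V 8828001 to 8829000, 42 kb apart, each carried both marks. Signal in the coIP was 172.5 ppm in the second, V 8870001 to 8871000, and 177.2 ppm in the first, V 8828001 to 8829000. Signal in N2 was 52.9 ppm in the second and 54.4 ppm in the first. From 3 kb before to 12 kb after these bins, the 16 bins of the second stretch held 0.798 to 1.20 times the coIP value, and 0.797 to 1.22 times the N2 value, of the bin at the same offset in the first. The stretches summed to 1478 ppm (second) and 1485 ppm (first) in the coIP, and to 545.2 ppm (second) and 548.1 ppm (first) in N2. N2 values were whole in 1 bin of the second and 2 of the first. GRTS marks agreed at 15 of 16 offsets, and the GRH mark stood at the same offset in both.

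Short gaps between GRH runs were not empty. In 10 places 1 bin without GRH, and in 5 places 2 bins, separated GRH runs. The 20 bins in these gaps had medians of 33.97 ppm in the coIP against 12.9 ppm in N2 and a median log2 ratio of 1.56, and 5 of them were below both neighbouring GRH bins in the coIP. The highest, I 4464001 to 4465000, held 985.7 ppm in the coIP against 272.3 ppm in N2, between GRH bins of 232.2 ppm (left) and 1278 ppm (right) in the coIP. The emptiest, II 14984001 to 14985000, held 1.01 coIP and 0 N2 read equivalents between GRH bins of 163.7 and 107.6 ppm in the coIP. Of the 20 bins, 3 carried GRTS.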
